A study of Mus musculus with 12 samples.

Results

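The kinesin motor genes were examined in mouse ear fibroblasts grown on gels of different stiffness and viscoelasticity. All gene symbols in the count table that begin with Kif followed by a digit or the letter c were taken, which gave 47 of the 33246 genes listed. Cells were isolated from the ears of C57BL/6 mice of 1 month of age, used at passage 2 and kept for 48 h on alginate gels before bulk mRNA was sequenced. The 4 groups of 3 samples were 2-kPa elastic, 20-kPa elastic, 2-kPa viscoelastic and 20-kPa viscoelastic gels. The elastic gels were covalently crosslinked and hardly relax under load, whereas the viscoelastic gels were ionically crosslinked and relax slowly. All gels carried the same adhesive RGD peptide, and no genetic change or drug was applied in any of these groups. The study calls the 3 samples of a group biological replicates. As no source used here says whether they came from separate animals or cultures, p-values measure the spread between these samples only, which may be technical.

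Kinesins are motor proteins that use ATP to step along microtubules or to take them apart at their ends. Some act mainly while a cell divides, when they push the spindle poles apart, move chromosomes and build the midbody through which the daughter cells separate, and many of these genes are transcribed late in the cell cycle. Others carry vesicles, mitochondria and mRNA through the cell at any time, largely towards the cell edge, and further members work in cilia or control microtubule length. Of the 47 symbols, 14 were grouped as mitotic kinesins, 16 as transport kinesins and 13 as other kinesins. The last 4 encode no motor (1 antisense transcript and 3 pseudogenes).

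The gene counts of a sample summed to 36626221 at the lowest and 43612804 at the highest, and 14542 genes had enough counts to be tested. Of the kinesin genes, 39 were tested, namely 13 mitotic, 15 transport and 11 other kinesins. The 8 that were not tested had at most 60 counts over all 12 samples. Kif2b, a testis-rich mitotic kinesin, had 0 counts, Kif28 had 6, the cilium-tip kinesin Kif19a had 60 and Kif19b had 8. Kif16bos, Kif22.ps, Kif4.ps and Kifc5c.ps had 5, 0, 0 and 7 counts. The cells were checked against their label. The 9 fibroblast markers were abundant in every sample, with Col1a1 between 5686 and 6793 CPM (reads of the gene scaled to a library of 1e+06 reads). The 4 cartilage markers Acan, Col2a1, Col9a1 and Matn3 were abundant too, with Col2a1 between 2396 and 3471 CPM. The summed level of these 4 markers ran from 3987 to 5161 CPM on 2-kPa elastic, 3588 to 3742 CPM on 20-kPa elastic, 3805 to 4885 CPM on 2-kPa viscoelastic and 3745 to 5077 CPM on 20-kPa viscoelastic gels. Summed markers of keratinocytes, endothelial, immune, pigment, glial and muscle cells reached at most 4.84, 2.02, 8.02, 1.26, 5.81 and 3.70 CPM. Of the defining genes, Tyr was at 0 in all 12 samples. Because the RNA came from whole cultures, fewer cells of a type and less RNA per cell cannot be told apart.

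The most abundant kinesins per exon length were transport motors. Kif1c, a kinesin-3 that carries vesicles and mRNA to the cell edge, stood at 31.2 CPM per kb of exon over the 12 samples. Kif5b, the widely expressed heavy chain of conventional kinesin (kinesin-1), stood at 26.9 CPM per kb and made up 95.7% of the 3 kinesin-1 heavy chains. The neuronal heavy chains Kif5a and Kif5c were at 0.662 and 0.538 CPM per kb. Among kinesin-2 genes, Kif3a (14.1 CPM per kb) and Kif3b (8.54 CPM per kb), which pair to carry cargo into the cilium, were higher than Kif3c (2.36 CPM per kb) and Kif17 (0.191 CPM per kb). The highest mitotic kinesin was Kif20a at 22.9 CPM per kb, followed by Kif11 at 11.4 and Kif2c at 10.2 CPM per kb, and the lowest were Kif18a and Kifc5b at 1.58 and 1.57 CPM per kb. The highest of the other kinesins was the microtubule depolymerase Kif2a at 11.8 CPM per kb. These levels are divided by the length of all annotated exons of a gene, so a gene expressed from short isoforms is understated.

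**Figure D1:**
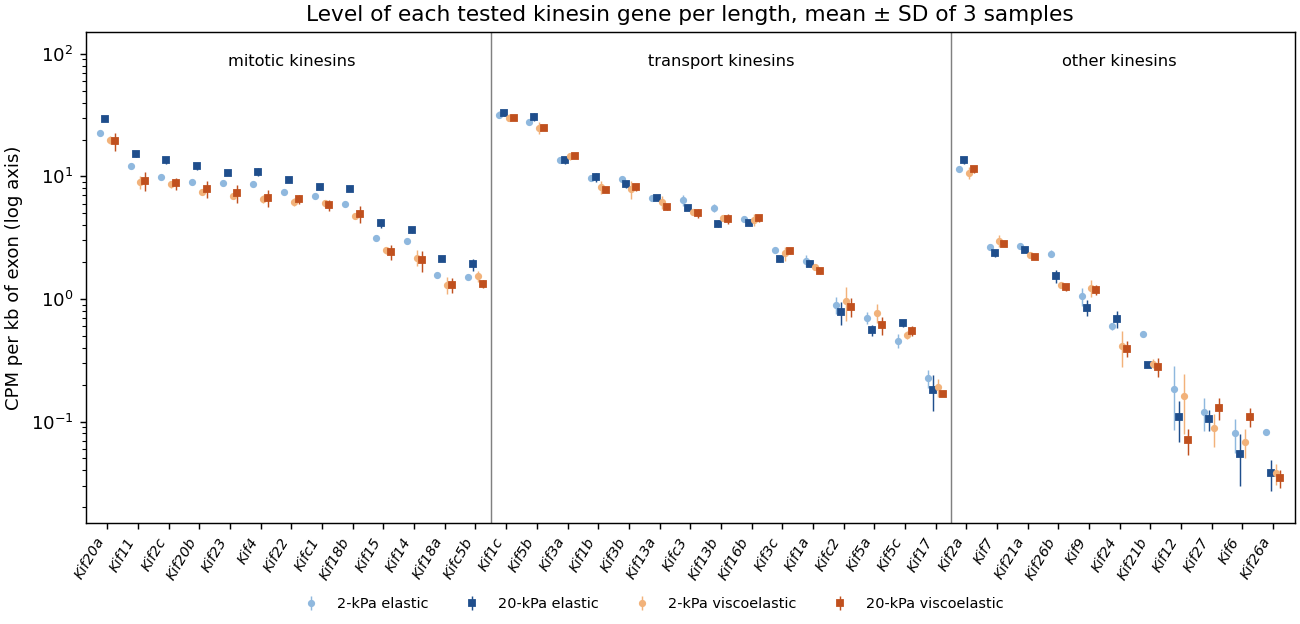
Level of the 39 tested kinesin genes in CPM per kb of annotated exon on a log axis, as mean ± SD of the 3 samples of each gel group. Kif1c (31.2 CPM per kb over all samples), Kif5b (26.9) and Kif20a (22.9) stand highest, and the 20-kPa elastic point is the highest of the 4 for each mitotic kinesin.

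On 20-kPa gels, all 13 tested mitotic kinesins were lower on viscoelastic than on elastic gels, and in each of them the 3 viscoelastic samples lay below the 3 elastic samples. Their median log2 fold change was -0.62 (range -0.83 for Kif14 to -0.49 for Kifc1), beside 0.02 over all tested genes. In this comparison 16.1% of all tested genes were called lower (edgeR, Benjamini-Hochberg adjusted p under 0.05), and 23.7% had viscoelastic samples that all lay below the elastic ones. Summed over the 13 genes, the level was 719.7, 730.3 and 779 CPM in the 20-kPa elastic samples and 519.7, 396 and 514 CPM in the 20-kPa viscoelastic samples. The count stayed at 13 in every alternative run, including each sample left out in turn. Beside this, 2 of the 4 cartilage markers were called higher and none lower in the same comparison, and 4 of the 9 fibroblast markers higher and 1 lower. Of all tested genes, 17.4% were called higher here. The part of the cell mixture in the result was not tested.

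Kif11 (chromosome 19, 37376403 to 37421859, plus strand of mm10) slides antiparallel microtubules to separate the spindle poles. It measured 109, 111 and 119.9 CPM on 20-kPa elastic gels and 76.4, 55.1 and 74.3 CPM on 20-kPa viscoelastic gels. Its level fell by 39.4% (log2 fold change -0.72 ± 0.11 SE, edgeR adjusted p = 0.000267). Kif15 (chromosome 9, 122951046 to 123018733, plus strand), which can take over spindle assembly from Kif11, measured 42.5, 45.2 and 50.1 CPM against 27.2, 22.8 and 29.7 CPM. The groups were apart by more than the spread within either, and the log2 fold change was -0.79 ± 0.09 (adjusted p = 8.87e-05). Kif2c, which dismantles microtubules at kinetochores to correct faulty attachments, measured 56.1, 57.7 and 63.0 CPM against 40.2, 33.4 and 41.4 CPM, a log2 fold change of -0.62 ± 0.08 (adjusted p = 0.000119).

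The kinesins bound to chromosomes or acting on microtubule plus ends moved alike. Kif4 (chromosome X), which shapes chromosomes and sets the length of the central spindle, measured 56.1, 59.0 and 65.6 CPM on elastic and 41.2, 30.5 and 38.9 CPM on viscoelastic 20-kPa gels (log2 fold change -0.71 ± 0.10, adjusted p = 0.00017). Kif22, which pushes chromosome arms away from the poles, measured 45.2, 45.5 and 46.2 CPM against 32.9, 29.1 and 34.3 CPM (log2 fold change -0.51 ± 0.07, adjusted p = 0.000156). Kif18a and Kif18b, which trim the plus ends of spindle microtubules, had log2 fold changes of -0.71 ± 0.11 and -0.68 ± 0.09.

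The cytokinesis kinesins fell as well. Kif14 (chromosome 1, 136466343 to 136531511, plus strand), which holds citron kinase at the midbody, measured 36.3, 37.3 and 40.3 CPM against 24.3, 16.6 and 23.4 CPM and fell by 43.6%, the most of the 13 (log2 fold change -0.83 ± 0.12, adjusted p = 0.000244). Kif20a (chromosome 18, 34624613 to 34633277, plus strand) brings the chromosomal passenger complex to the central spindle. Its 20-kPa elastic samples were nearly equal at 127, 128 and 127 CPM, whereas the viscoelastic samples measured 94.3, 68.2 and 91.0 CPM. Kif23, the motor of centralspindlin, measured 83.1, 82.4 and 89.3 CPM against 62.5, 46.8 and 63.2 CPM. The log2 fold changes were -0.59 ± 0.09 for Kif20a, -0.56 ± 0.09 for Kif23 and -0.61 ± 0.09 for Kif20b, a motor of late abscission.

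The minus-end kinesins Kifc1 and Kifc5b, which focus spindle poles, had log2 fold changes at 20 kPa of -0.49 ± 0.08 and -0.54 ± 0.11. These 2 genes are near-copies: 36.6% of the 50-base stretches of the Kifc5b transcripts also occur in Kifc1, so reads could be split between them and their values are uncertain. Of the exon bases of Kif20a, 29.3% also lie in Cdc23, and of those of Kif4, 15.1% lie in Pdzd11. As the strand setting of the counting was not given in the sources used here, reads from such overlaps cannot be told apart.

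**Figure D2:**
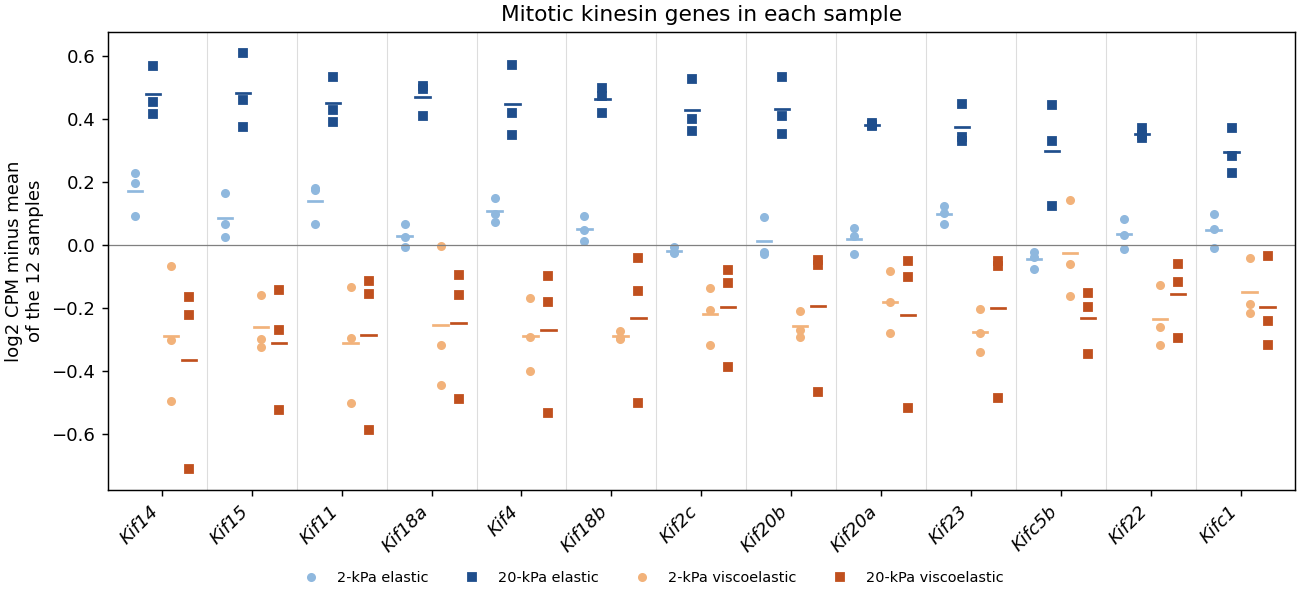
Log2 CPM of the 13 tested mitotic kinesins in each of the 12 samples, minus the gene's mean over all samples. Points are samples and short lines are means of 3. In 12 of the 13 genes, all but Kifc5b, the 3 samples of the 20-kPa elastic group lie above the other 9 samples, and the lowest of the 20-kPa viscoelastic points is replicate 2 in 13 of 13 genes.

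The lowest sample of the 20-kPa viscoelastic group was replicate 2 in 13 of 13 mitotic kinesins, at a summed 396 CPM against 519.7 and 514 CPM in its group. With this sample left out, 13 were still called lower and the median log2 fold change was -0.53 (range -0.69 to -0.43). Among the 20-kPa elastic samples, replicate 3 was the highest in 11 of 13 genes. Neither sample stood out in total counts, which were 41726281 and 41545293. Both differed more from their group over the genes at large. Pairs with 20-kPa viscoelastic replicate 2 differed by 30.1 and 39.7 times the counting variance, against 16.7 for replicates 1 and 3. Pairs with 20-kPa elastic replicate 3 differed by 32.9 and 26.4 times, against 12.2 for replicates 1 and 2.

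On 2-kPa gels the mitotic kinesins were lower on viscoelastic gels by a smaller amount. Of the 13, 8 were called lower and none higher, where 11.1% of all tested genes were called lower, and the median log2 fold change was -0.27, beside 0.00 over all tested genes. The samples of the 2 groups did not overlap for 11 of the 13, against 19.7% of all genes that were lower without overlap. Kif11 measured 93.8, 93.4 and 86.8 CPM on elastic and 75.5, 58.5 and 67.5 CPM on viscoelastic gels (log2 fold change -0.44 ± 0.11, adjusted p = 0.0101). Kif14 measured 31.2, 31.9 and 29.0 CPM against 26.0, 19.3 and 22.1 CPM (log2 fold change -0.45 ± 0.12, adjusted p = 0.0179). Kif4 (-0.39), Kif23 (-0.37), Kif15 (-0.35), Kif18b (-0.34), Kif20b (-0.27) and Kif22 (-0.27) were also called lower on the log2 scale. The Kif20b call was lost in 13 of 22 alternatives, RLE scaling, total counts alone and the length correction included (highest adjusted p 0.158). Those not called were Kif18a (-0.27, adjusted p = 0.093), Kif2c (-0.20), Kif20a (-0.20), Kifc1 (-0.19) and Kifc5b. The Kifc5b samples overlapped, at 5.45, 5.66 and 5.60 CPM on elastic and 5.14, 6.34 and 5.51 CPM on viscoelastic gels. The count of 8 became 4 without 2-kPa elastic replicate 1 and 5 without 2-kPa elastic replicate 2 or 2-kPa viscoelastic replicate 3, and 1 of the 8 passed an adjusted p under 0.01. Of the 4 cartilage markers, 1 was called lower and none higher at 2 kPa, and their part in the result was not tested.

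On elastic gels the mitotic kinesins rose with stiffness. Of the 13, 10 were called higher at 20 than at 2 kPa and none lower, where 6.81% of all tested genes were called higher. The 20-kPa samples lay above the 2-kPa samples in all 13 genes, against 17.8% of all tested genes, and the median log2 fold change was 0.35 (range 0.25 to 0.45), beside -0.01 over all genes. Kif2c had the largest rise, from 43.5, 43.1 and 43.0 CPM to 56.1, 57.7 and 63.0 CPM (36.5%, log2 fold change 0.45 ± 0.08, adjusted p = 0.00151). Kif18a (0.44), Kif20b (0.42), Kif18b (0.41), Kif15 (0.40), Kif20a (0.36), Kifc5b (0.35), Kif4 (0.34), Kif22 (0.32) and Kifc1 (0.25) also rose on the log2 scale. Kif11, Kif14 and Kif23 gave 0.31 ± 0.11, 0.31 ± 0.12 and 0.28 ± 0.09 with adjusted p values of 0.0679, 0.103 and 0.051. The count was 6 without 2-kPa elastic replicate 1, 2-kPa elastic replicate 3 or 20-kPa elastic replicate 3, and 5 at an adjusted p under 0.01. Of the cartilage markers, 2 of 4 were called lower and none higher in this comparison, where 7.14% of all tested genes were called lower. The part of these markers in the result was not tested.

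On viscoelastic gels no mitotic kinesin was called between 20 and 2 kPa. None had an unadjusted p under 0.05 in edgeR, DESeq2 also called none, and the samples of the groups overlapped in all 13 genes. In this comparison 2.28% of all tested genes were called and 22.3% had groups without overlap. The median log2 fold change was 0.02, and the 95% intervals of the 13 genes ran from -0.45 at the lowest end (Kifc5b) to 0.28 at the highest (Kif23). For Kif11, with 75.5, 58.5 and 67.5 CPM at 2 kPa and 76.4, 55.1 and 74.3 CPM at 20 kPa, the interval was -0.20 to 0.26. Without 20-kPa viscoelastic replicate 2 the median was 0.12 and again none was called.

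The difference between the 2 stiffness effects was tested by an interaction term. All 13 estimates were below 0, with a median of -0.34 on the log2 scale, and 3 were called, where 3.12% of all tested genes were called in that direction. Kif2c (-0.42 ± 0.11, adjusted p = 0.0295), Kif15 (-0.44 ± 0.13, adjusted p = 0.0446) and Kifc5b (-0.56 ± 0.16, adjusted p = 0.0395) passed. For the other 10 the difference between gel types was not shown. The count was 0 without any of the 3 samples of the 2-kPa elastic group, and 0 without 20-kPa elastic replicate 2 or replicate 3. It was 1 without 2-kPa viscoelastic replicate 1 or 20-kPa viscoelastic replicate 2. The 20-kPa elastic group stood apart from the rest: for 12 of the 13 genes all its samples lay above the other 9 samples, a pattern of 6.26% of all tested genes. Averaged over both stiffnesses, viscoelastic gels gave lower levels for all 13 genes (median log2 difference -0.47), where 20.4% of all tested genes were called lower. These comparisons share samples and are not independent of each other.

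The genes that work with the mitotic kinesins moved in the same directions. Of 26 spindle and midbody partners, 26 were called lower on viscoelastic gels at 20 kPa and 15 at 2 kPa, 22 were called higher at 20 than at 2 kPa on elastic gels, and none was called on viscoelastic gels, where 1 had an unadjusted p under 0.05 in edgeR and DESeq2 called none. Of all tested genes, 16.1% and 11.1% were called lower in the first 2 of these comparisons, 6.81% higher in the third and 2.28% in either direction in the last. The partners' medians were -0.61, -0.30, 0.34 and 0.04 on the log2 scale, beside -0.62, -0.27, 0.35 and 0.02 for the 13 mitotic kinesins. Citron kinase (Cit), anchored by Kif14, and anillin (Anln), the scaffold of the cleavage furrow, both had log2 fold changes of -0.86 at 20 kPa. The spindle protein Spag5 gave -0.71 and the checkpoint kinase Bub1b -0.65. On elastic gels the spindle assembly factor Tpx2 rose by 0.43 and survivin (Birc5), a member of the passenger complex, by 0.39 on the log2 scale. The same 20-kPa viscoelastic sample, replicate 2, was the lowest of its group in 26 of 26 partners. Of 16 genes of DNA replication (S phase), 12 were called lower at 20 kPa and 7 at 2 kPa on viscoelastic gels, beside the same shares of all genes, with the helicase subunits Mcm5 and Mcm3 at -0.65 and -0.60 at 20 kPa. On elastic gels 11 of these 16 were called higher at 20 kPa, beside 6.81% of all genes, among them the ribonucleotide reductase subunit Rrm2 at 0.53. On viscoelastic gels none of the 16 was called at 20 against 2 kPa by edgeR or DESeq2, and 3 had an unadjusted p under 0.05. By EdU labelling after the same culture time, the paper reports more proliferation on softer viscoelastic gels than on elastic gels as soft. It reports no significant difference on its stiffest gels, and a rise with stiffness on elastic gels. The lower mRNA levels on viscoelastic gels do not follow that order, whereas the rise on elastic gels does. Why they differ was not tested, and mRNA levels are not counts of dividing cells.

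**Figure D3:**
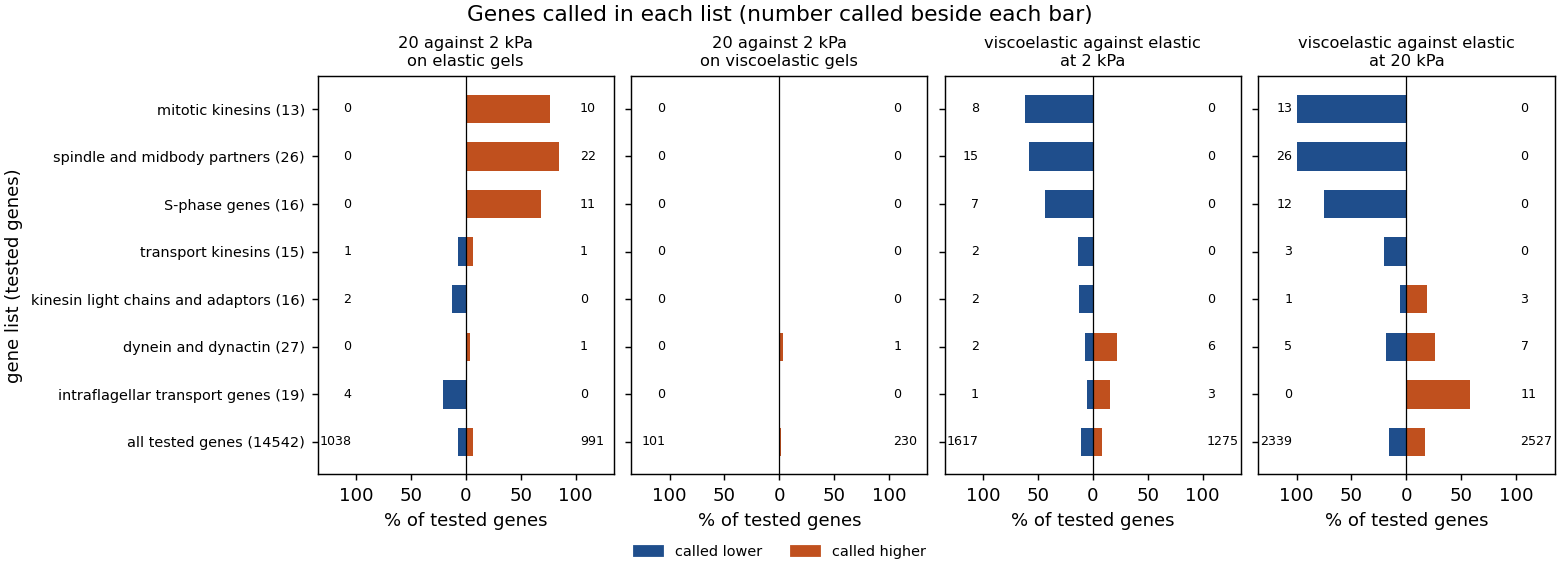
Share of the tested genes of each list that were called lower (bars to the left) or higher (bars to the right) in 4 comparisons, with the number called beside each bar and the number tested in parentheses. Mitotic kinesins, their partners and the S-phase genes go left in the viscoelastic comparisons and right for stiffness on elastic gels, while the last bar gives the same for all 14542 tested genes.

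As the mitotic kinesins moved together, their promoters were searched for the letters TTTGAA, the core of the cell-cycle homology region bound by the DREAM repressor, and CCAAT, the box bound by NF-Y, on both strands. RefSeq windows of GRCm38.p6 from 250 bases before to 50 bases after the start were held for 34 of the 47 genes. TTTGAA was found in 11 of 13 mitotic kinesin genes with a window, in 1 of 10 transport and in 2 of 10 other kinesin genes, against 20.2% of 27025 genes. These 13 are not the 13 tested mitotic kinesins. They include Kif2b, which was not tested and held CCAAT but no TTTGAA, and lack Kif20a. Within 50 bases of the start it was found in 9 of the 13, against 5.72% of genes. Both motifs occurred in 8 of the 13 mitotic genes and in 0 of the 10 transport genes, against 7.97% of genes. Of the spindle and midbody partners, 15 of 22 held TTTGAA, whereas 1 of 12 S-phase genes did. The list of mitotic genes was not chosen by these letters, and a match is a description of the sequence only. The 120 bases before the start are shown for 3 mitotic kinesins, for Kif26b, the kinesin with the lowest adjusted p on 2-kPa gels, and for the 2 transport kinesins Kif1b and Kif1c, written from 5′ to 3′ on the gene's strand. Capitals mark CCAAT or its complement ATTGG and TTTGAA or its complement TTCAAA. The regions are chr19:37376262-37376381 (plus) for Kif11, chr11:102925125-102925244 (minus) for Kif18b, chr9:61946800-61946919 (minus) for Kif23, chr1:178529005-178529124 (plus) for Kif26b, chr4:149307734-149307853 (minus) for Kif1b and chr11:70700428-70700547 (plus) for Kif1c.
Kif11: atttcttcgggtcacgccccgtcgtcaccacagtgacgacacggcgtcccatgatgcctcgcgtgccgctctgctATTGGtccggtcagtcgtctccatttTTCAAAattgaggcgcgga
Kif18b: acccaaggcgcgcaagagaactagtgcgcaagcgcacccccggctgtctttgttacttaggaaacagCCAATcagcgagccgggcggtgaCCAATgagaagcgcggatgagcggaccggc
Kif23: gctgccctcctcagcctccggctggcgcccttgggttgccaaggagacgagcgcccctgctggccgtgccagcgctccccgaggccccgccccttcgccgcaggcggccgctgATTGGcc
Kif26b: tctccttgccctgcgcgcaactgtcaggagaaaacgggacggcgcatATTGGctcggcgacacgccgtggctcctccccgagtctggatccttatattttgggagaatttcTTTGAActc
Kif1b: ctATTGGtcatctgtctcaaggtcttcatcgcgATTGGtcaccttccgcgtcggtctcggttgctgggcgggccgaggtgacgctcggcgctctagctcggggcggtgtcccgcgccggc
Kif1c: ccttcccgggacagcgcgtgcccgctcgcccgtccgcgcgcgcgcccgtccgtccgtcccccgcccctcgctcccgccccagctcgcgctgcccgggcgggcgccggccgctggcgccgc
In Kif11, TTCAAA begins 19 bases before the start and ATTGG 45 bases before it. In Kif18b and Kif23 the TTTGAA match lies just past the start, at 3 and 2 bases, and so outside the stretch shown. Kif26b, which is not a mitotic kinesin, held both motifs, 9 and 73 bases before its start, and Kif1c held neither.

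The transport kinesins differed from the mitotic ones in how many moved. On 20-kPa gels 3 of 15 were called lower on viscoelastic gels and none higher, beside the 16.1% of all tested genes called lower, and the median log2 fold change was -0.11. Kif5b (chromosome 18, 6201002 to 6242174, minus strand), the main heavy chain of conventional kinesin, measured 226, 248 and 259 CPM on elastic and 198, 189 and 203 CPM on viscoelastic gels (log2 fold change -0.31 ± 0.08, adjusted p = 0.00651). Kif1b, which carries mitochondria and synaptic vesicle precursors, measured 155, 179 and 184 CPM against 139.6, 132 and 138 CPM (-0.34 ± 0.09, adjusted p = 0.00721). Kif13a, which brings recycling endosomes to the cell edge, measured 51.3, 56.4 and 54.3 CPM against 48.1, 43.1 and 46.2 CPM (-0.24 ± 0.08, adjusted p = 0.0293). For each of these 3 genes the samples of the groups did not overlap, as for 6 transport kinesins that were lower without overlap and 2 that were higher, against 23.7% and 26.2% of all tested genes. With a correction for gene length, alone or with the GC correction and the replicate block, 3 transport kinesins were called higher and 1 lower in this comparison. Kif5b was still called lower there, and the calls of Kif1b and Kif13a were lost. Of all 14542 tested genes, 2145 were called higher and 1979 lower with the length correction alone. The most abundant member Kif1c gave -0.14 (95% interval -0.28 to 0.00, adjusted p = 0.126), and Kif3a, the core kinesin-2 motor, gave 0.11 (-0.02 to 0.25).

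On 2-kPa gels 2 transport kinesins were called lower on viscoelastic gels, beside the 11.1% of all tested genes. Kifc3, a minus-end motor of cell junctions, measured 37.9, 32.9 and 31.4 CPM on elastic and 28.5, 25.5 and 28.1 CPM on viscoelastic gels (log2 fold change -0.32 ± 0.08, adjusted p = 0.0117). Of its exon bases, 27.5% overlap other genes. Kif13b, a kinesin-3 that binds the polarity protein Dlg1, measured 77.9, 68.9 and 68.2 CPM against 60.6, 56.9 and 62.8 CPM (-0.25 ± 0.08, adjusted p = 0.027). The samples of the groups did not overlap for either gene. In all, 3 of the 15 transport kinesins were lower without overlap, against 19.7% of all tested genes. Without 2-kPa elastic replicate 1 neither of the 2 was called, and without 2-kPa viscoelastic replicate 2 1 was called. The count was 4 without 2-kPa elastic replicate 3 and 5 without 2-kPa viscoelastic replicate 1.

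With stiffness on elastic gels, 1 transport kinesin was called higher and 1 lower, where 6.81% and 7.14% of all tested genes were called in these directions. Kif5c, a heavy chain best known from neurons and low here, rose from 3.74, 2.89 and 3.19 CPM to 4.62, 4.72 and 4.19 CPM (log2 fold change 0.46 ± 0.12, adjusted p = 0.022). Its call was lost without 2-kPa elastic replicate 2 or 3 or 20-kPa elastic replicate 2, with an adjusted p of up to 0.0981 over all alternatives. Kif13b fell to 56.9, 53.4 and 50.2 CPM (-0.42 ± 0.08, adjusted p = 0.00209). On viscoelastic gels no transport kinesin was called by edgeR or DESeq2, and 1 had an unadjusted p under 0.05. The interaction was called for Kif13b (0.39 ± 0.11, adjusted p = 0.0366), where 4.45% of all tested genes were called in that direction. This call was lost without 2-kPa elastic replicate 1, 20-kPa elastic replicate 2 or 3, 2-kPa viscoelastic replicate 1 or 2, or 20-kPa viscoelastic replicate 1 or 2 (highest adjusted p 0.104 over all alternatives). Averaged over both stiffnesses, 6 of 15 were called lower on viscoelastic gels, beside 20.4% of all tested genes. They were Kif1b (-0.29), Kif5b (-0.23), Kifc3 (-0.22), Kif13a (-0.18), Kif3b (-0.18) and the vesicle motor Kif1a (-0.18). Leaving out 2-kPa elastic replicate 2 or 20-kPa elastic replicate 2 left 3 of these calls. The Kif3b call was lost in 14 of 21 alternatives (highest adjusted p 0.119) and the Kif1a call in 11 (0.61), among them scaling by total counts alone and the length correction for both and the replicate block for Kif3b. The Kif13a call was lost in 6. The remaining 7 members Kif1c, Kif3a, Kif3c, Kif5a, Kif16b, Kif17 and Kifc2 were called in no comparison.

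**Figure D4:**
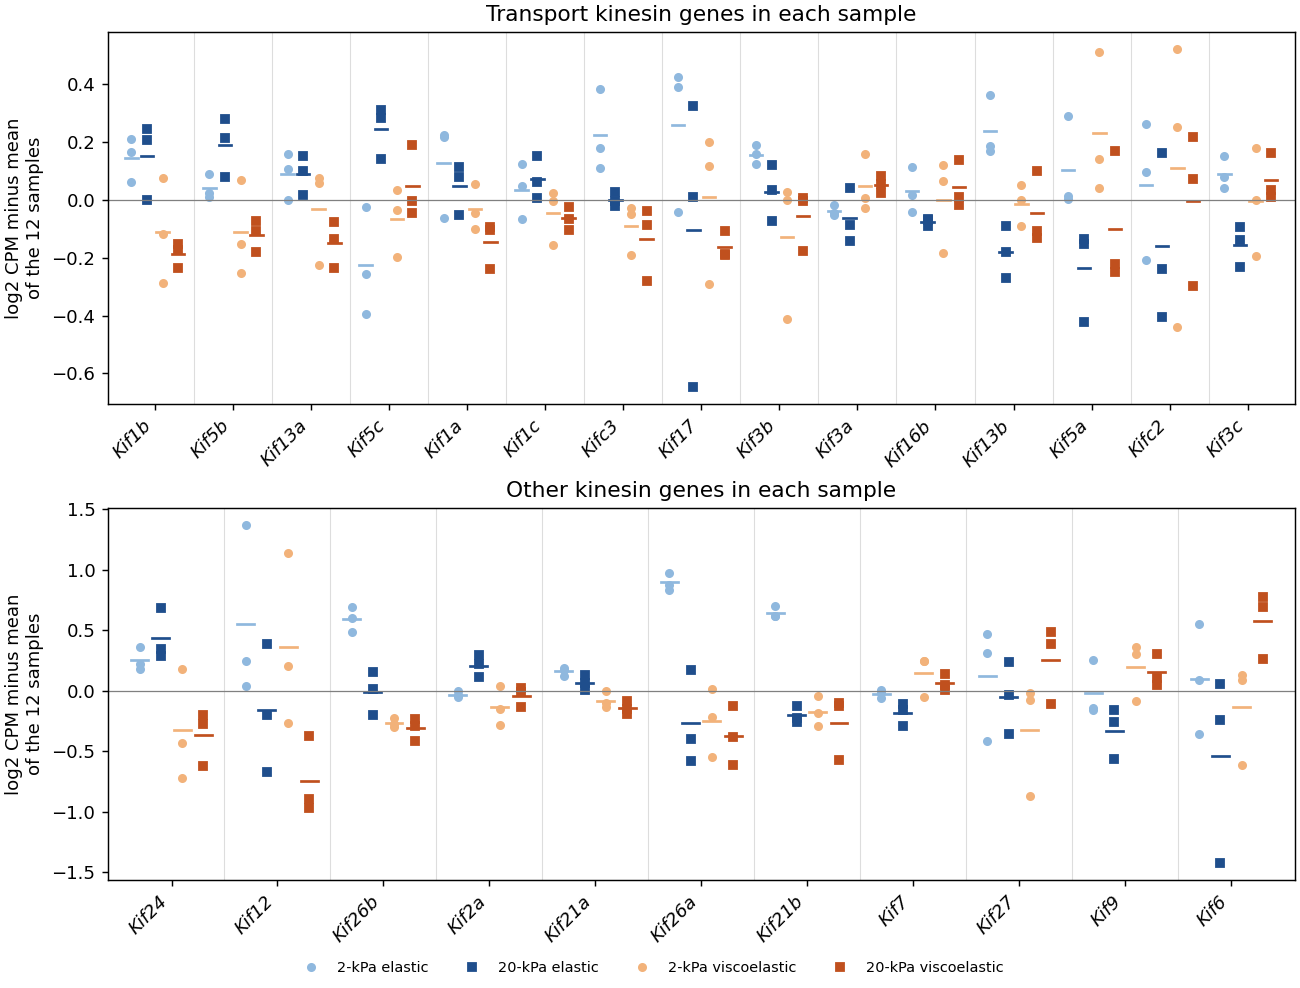
Log2 CPM of the 15 transport kinesins (upper panel) and the 11 other kinesins (lower panel) in each sample, minus the gene's mean over all 12 samples. Points are samples and short lines are means of 3. Kif5b and Kif1b are lower in the 20-kPa viscoelastic than in the 20-kPa elastic samples, and Kif26b, Kif26a and Kif21b are highest in the 3 samples of the 2-kPa elastic group. Kif17, Kif12, Kif26a, Kif27 and Kif6 are under 1 CPM on average and scatter widely.

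Of the other kinesins, 3 were highest on 2-kPa elastic gels. Kif26b (chromosome 1, 178529125 to 178939200, plus strand), a kinesin without motor activity that acts in Wnt5a-Ror signalling, measured 36.8, 34.7 and 32.0 CPM on 2-kPa elastic gels. The 20-kPa elastic samples measured 19.9, 23.0 and 25.4 CPM. The viscoelastic samples measured 19.5, 18.8 and 18.5 CPM at 2 kPa and 18.7, 17.1 and 19.5 CPM at 20 kPa, so every 2-kPa elastic sample lay above the other 9. The log2 fold change was -0.86 ± 0.08 for viscoelastic gels at 2 kPa (adjusted p = 2.31e-05), -0.60 ± 0.08 for stiffness on elastic gels (adjusted p = 0.000349) and 0.56 ± 0.12 for the interaction (adjusted p = 0.0109). Kif21b, which slows microtubule growth, measured 6.59, 6.24 and 6.23 CPM on 2-kPa elastic gels and 2.73 to 3.94 CPM in the other 9 samples. Its log2 fold changes were -0.82 ± 0.12, -0.85 ± 0.12 and 0.76 ± 0.18 in the same order. Kif26a, a related kinesin without motor activity, had the same order at 0.548, 0.563 and 0.604 CPM against 0.201 to 0.345 CPM elsewhere, but with 8 to 23 counts per sample. DESeq2 did not call its change with stiffness, and the call was also lost without 20-kPa elastic replicate 2 (highest adjusted p 0.064). In 6 of the 39 tested kinesins all samples of the 2-kPa elastic group lay above the other 9, namely these 3 and the transport kinesins Kif13b, Kif3b and Kifc3, a pattern of 6.42% of all tested genes.

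In the comparison of viscoelastic with elastic gels at 2 kPa, 4 of the 11 other kinesins were called lower, beside 11.1% of all tested genes, among them Kif21a (-0.24 ± 0.06, adjusted p = 0.0175), and none higher. At 20 kPa 4 were called lower and 3 higher, where 16.1% and 17.4% of all tested genes were called. With the gene length correction 1 was called lower and 3 higher, beside 1979 and 2145 of all 14542 tested genes. The 7 calls became 3 without 20-kPa elastic replicate 2 or 20-kPa viscoelastic replicate 2, 1 without 20-kPa elastic replicate 3, and 4 without 20-kPa viscoelastic replicate 1 or 3. Kif24, which caps the mother centriole and restrains cilium formation, had the largest fall, from 5.11, 4.90 and 6.48 CPM to 3.51, 2.61 and 3.34 CPM (log2 fold change -0.80 ± 0.19, adjusted p = 0.00505). Kif26b (-0.31), Kif2a (-0.25) and Kif21a (-0.21) were the other 3 on the log2 scale. The 3 that rose work at or in cilia. Kif7, a regulator of Hedgehog signalling at the tip of the cilium, measured 10.0 to 11.4 CPM in the 3 elastic and 12.4 to 13.5 CPM in the 3 viscoelastic samples (0.25 ± 0.09, adjusted p = 0.0398). Kif9, a motor of motile cilia and sperm tails, measured 4.09, 3.81 and 3.08 CPM against 4.73, 4.90 and 5.62 CPM (0.47 ± 0.15, adjusted p = 0.0284). Kif6, at 0.163, 0.456 and 0.370 CPM against 0.749, 0.706 and 0.527 CPM, rested on 7 to 32 counts per sample (1.00 ± 0.34, adjusted p = 0.0367). For Kif7 and Kif9 the 3 samples of the 20-kPa elastic group lay below the other 9 samples, a pattern of 4.26% of all tested genes. DESeq2 called neither Kif7 nor Kif6. The Kif7 call was lost when any of the 6 samples at 20 kPa or 2-kPa elastic replicate 2 was left out, the Kif9 call without 20-kPa elastic replicate 2 or 3 or 20-kPa viscoelastic replicate 3, and the Kif6 call without 20-kPa elastic replicate 1 or 3 or 20-kPa viscoelastic replicate 1 or 2. Of the exon bases of Kif7, 20.3% lie in other genes.

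With stiffness on elastic gels Kif2a rose from 72.0, 74.6 and 72.9 CPM to 80.9, 87.0 and 91.6 CPM (log2 fold change 0.24 ± 0.08, adjusted p = 0.0463), and its 20-kPa elastic samples lay above the other 9, as in the mitotic kinesins. This depolymerase works both at spindle poles and in cells that do not divide. Its call was lost in 12 of 22 alternatives (highest adjusted p 0.184), and 19.2% of its exon bases overlap Dimt1. On viscoelastic gels no other kinesin was called at 20 against 2 kPa, while 1 had an unadjusted p under 0.05 in edgeR and DESeq2 called none. Averaged over both stiffnesses, Kif24 (-0.67), Kif26a (-0.62), Kif26b (-0.59), Kif21b (-0.43), Kif21a (-0.23) and Kif2a (-0.17) were called lower on viscoelastic gels and Kif9 (0.34) and Kif7 (0.21) higher. Of all tested genes, 20.4% were called lower and 19.6% higher. The Kif26a call was lost in 11 of 21 alternatives, DESeq2 included (highest adjusted p 0.129), that of Kif9 in 6 and that of Kif2a in 5. Without 20-kPa elastic replicate 3, 5 of these 8 calls were made. Kif12 and Kif27 were called in no comparison.

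**Figure D5:**
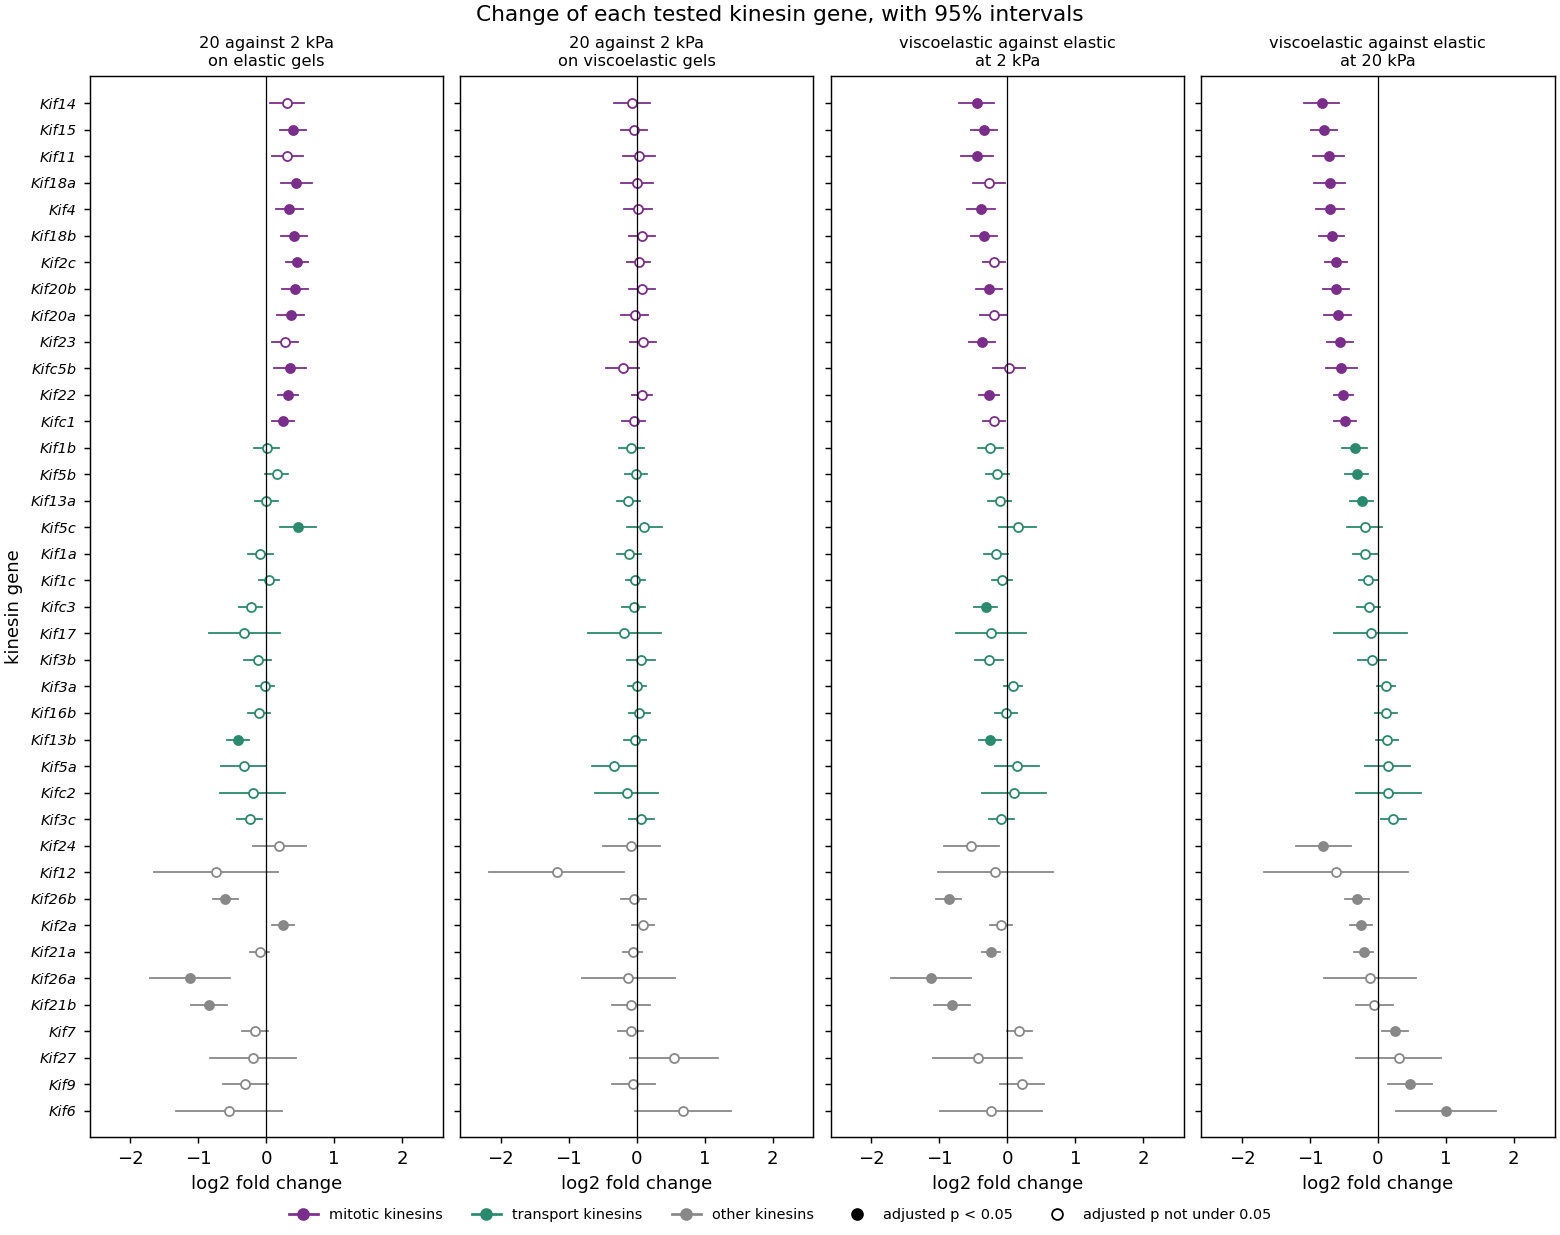
Log2 fold change of each of the 39 tested kinesin genes in 4 comparisons, with 95% intervals from the edgeR fit. Filled points have an adjusted p under 0.05. The 13 mitotic kinesins lie at 0.25 to 0.45 for stiffness on elastic gels, around 0 for stiffness on viscoelastic gels, and at -0.83 to -0.49 for viscoelastic against elastic gels at 20 kPa, whereas the intervals of most transport kinesins include 0.

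Genes that work with the transport kinesins were read against the 17.4% of all tested genes called higher and the 16.1% called lower on viscoelastic gels at 20 kPa. Of 16 tested light chains and cargo adaptors, 3 were called higher and 1 lower on viscoelastic gels at 20 kPa, with the kinesin-binding protein Kifbp at 0.39, the lysosomal adaptor Arl8a at 0.26 and the JNK scaffold Mapk8ip1 at 0.50 on the log2 scale. At 2 kPa 2 of these 16 were called lower and none higher, where 11.1% and 8.77% of all tested genes were called. They were the mitochondrial adaptors Trak1 (-0.36) and Trak2 (-0.27). Of 27 tested genes of dynein and dynactin, the motor that moves in the opposite direction, 7 were called higher and 5 lower at 20 kPa, beside the same shares of all genes. At 2 kPa 6 were called higher and 2 lower, where 8.77% and 11.1% of all tested genes were called. The light chains Dynlrb1 and Dynll1 rose by 0.50 and 0.39 at 20 kPa. Of the 19 genes of intraflagellar transport, the cargo trains that kinesin-2 pulls into the cilium, 11 were called higher and none lower on viscoelastic gels at 20 kPa (median log2 fold change 0.19), beside the 17.4% of all tested genes called higher. Cluap1 (0.48), Ift43 (0.39) and Ift22 (0.38) had the lowest p values with Ift74 (0.34). At 2 kPa 3 were called higher and 1 lower on viscoelastic gels (median log2 fold change 0.07), beside 8.77% and 11.1% of all tested genes. On elastic gels 4 of the 19 were called lower at 20 than at 2 kPa, with Ift122 at -0.32, beside 7.14% of all tested genes. For stiffness on viscoelastic gels none was called by edgeR or DESeq2. There 7 had an unadjusted p under 0.05 in edgeR (6 higher and 1 lower), as had 2768 of all 14542 tested genes. Calls in the lists beside the kinesins, spindle partners and S-phase genes included, were compared with DESeq2 only. They were not counted under the length correction or the other alternatives.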

How the data were processed

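Reads were cleaned by the authors with Trimmomatic and mapped to mm10 with STAR, and the deposited values are raw counts per gene from featureCounts and a GENCODE annotation, without normalization. The annotation release, the strand setting and the treatment of reads with several matches were not given in the sources used here. From these counts, genes passing filterByExpr (minimum count 10, minimum total 15) were scaled by TMM and fitted with edgeR 4.0.16 in R 4.3.3 as a quasi-likelihood model of all 12 samples with 1 coefficient per group. The square root of the common dispersion was 7.50%. Genes were called at a Benjamini-Hochberg adjusted p under 0.05 over all tested genes, with no minimum fold. CPM are TMM-normalized. Intervals are 95% intervals, and SE is that of the log2 fold change.

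Exon lengths came from GENCODE vM21, which matched 46 of the 47 symbols, and promoters from RefSeq. Members called in any comparison are named with values, and of the other lists up to 4 genes with the lowest p in the comparison spoken of. The members and lists were chosen with earlier results of these data known. The fit was tested on simulated counts for stiffness on elastic gels, where 79 of 100 changes of 0.5 and 97 of 100 of 1 on the log2 scale were recovered among 14418 genes, with 11 false calls. Smaller changes, such as the 0.25 to 0.45 of the mitotic kinesins in that comparison, were not simulated. Replicates of a group differed by 11.2 to 55.5 times the counting variance, so none was a repeat deposit. Alternatives were scaling by RLE factors or by totals alone, testing every gene with a count, a stricter p, only the groups compared, a replicate block, length and GC corrections, DESeq2 1.42.0 and each sample left out. Protein sequences were not used here.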

Additional observations from a re-analysis of the deposited data

Results flagged for a closer look

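A difference in the stiffness effect between gel types (interaction term) was called for 6 of the 39 tested kinesin genes (edgeR, adjusted p under 0.05). This was 15.4% of them, beside 7.56% of all tested genes. On the log2 scale the rise with stiffness on elastic gels was not matched on viscoelastic gels for Kif15 (-0.44), Kif2c (-0.42) and Kifc5b (-0.56). The fall on elastic gels was not matched for Kif13b (0.39), Kif21b (0.76) and Kif26b (0.56). The Kif26b call was lost in 1 of 21 alternatives, the stricter threshold, and the Kif21b call in 3 (that threshold, and without 20-kPa viscoelastic replicate 1 or 3), whereas those of Kif15, Kif2c, Kifc5b and Kif13b were lost in 10, 7, 12 and 11.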

How the results depend on the processing

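No call of a single gene turned its sign: of 1859 values of the 86 called changes under alternatives, 1618 kept direction and call and 241 kept the direction only. Mitotic kinesins called for viscoelastic gels at 20 kPa numbered 13 in every alternative, and over both stiffnesses 12 to 13. None was called for stiffness on viscoelastic gels under any. At an adjusted p under 0.01 the mitotic counts were 5 for stiffness on elastic gels, 1 for viscoelastic gels at 2 kPa and 0 for the interaction, and the transport counts 1, 0 and 0, with 3 over both stiffnesses. With every gene with a count tested, 6 mitotic kinesins passed the interaction and 4 transport kinesins the 2-kPa comparison. Scaling by total counts alone left 1 transport kinesin at 2 kPa and 0 for the interaction, and the length correction left 1 at 2 kPa. At 20 kPa the transport calls went from 0 higher and 3 lower to 3 higher and 1 lower with the length correction, and to 1 higher and 2 lower with total counts alone. With only the 2 groups compared, 4 transport kinesins were called for stiffness on elastic gels. Leaving out a sample gave 6 to 13 mitotic kinesins for stiffness on elastic gels, 4 to 10 at 2 kPa and 0 to 3 for the interaction, and 1 to 3, 0 to 5 and 0 to 2 transport kinesins, with 3 to 7 over both stiffnesses.

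Of 18 pairs of same-numbered samples, 2 had deviations that correlated above 0.1 (range -0.20 to 0.31). Both were between the 2-kPa and 20-kPa viscoelastic groups, at 0.18 for replicate 1 and 0.31 for replicate 2. Differently numbered samples were not compared in this way, so whether the numbers pair the samples was not settled. With the replicate block the interaction was called for 1 mitotic and 0 transport kinesins, and the mitotic counts were 8 for stiffness on elastic gels, 8 at 2 kPa and 13 at 20 kPa. With the block and the length and GC corrections together, 0 transport kinesins were called at 2 kPa and 0 for the interaction. Over all tested genes, 44.1% of calls were higher at 2 kPa and 57.1% with total counts alone, and 48.9% and 60.5% over both stiffnesses. For stiffness on viscoelastic gels 69.5% were higher, and 59.0% with the length correction. Called genes there numbered 331, and 757 with DESeq2, 154 with the block, 178 with the length correction and 88 with the block and both corrections. The causes of these shifts were not tested. With 3 samples a group, changes near 0.3 on the log2 scale lie close to the threshold, and genes under 1 CPM rest on few counts.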
